A study of Mus musculus with 2 samples.

Results

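Msx3, Cldn11, Tmem26, Rbp4, Cbr2 and Vwf are 6 genes best known from cells other than macrophages, and in cultured mouse macrophages their levels in 1 library were many times those in the other. They were chosen from the measured values: each had over 30 FPKM in the library labelled RON TK-/- but under 5 FPKM in the library labelled WT. FPKM is the number of fragments read from each kilobase of a transcript, scaled to how many its library holds. All 6 were found among the 23444 gene symbols of the deposited tables. Of those symbols, 50 (0.213%) lay within both limits, and the 6 were taken from those 50 as genes not classically tied to macrophages. The difference between the libraries is therefore a description of how the genes were picked, and nothing below tests it.

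RNA was sequenced from macrophages that had been derived in culture from the bone marrow of mice of the inbred strain FVB. One library is labelled RON TK-/- (RON deficient, without the kinase of the receptor RON) and 1 is labelled WT (RON proficient). Both labels state growth in high-glucose DMEM with 10% serum, pyruvate and 6 mM glutamine, then 72 hours with 10 ng/mL of recombinant interleukin-4, the cytokine of alternative (M2) activation. How many animals gave each library is not stated in the sources used here. Each group has 1 library and thus no replicate check, so "higher" and "lower" below compare these 2 libraries, not the genotypes, and no p-value is given.

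The labels could not be checked by the targeted gene, and other genes go against 1 of them. Mst1r, which encodes RON, was listed at 0 FPKM in both libraries. Arg1, the arginase induced by interleukin-4, had 5041 FPKM in the library labelled RON TK-/-, against 1.0 FPKM in the library labelled WT. Chil3 and Retnla, also induced by interleukin-4, had 4604 and 3665 FPKM in the library labelled RON TK-/-, while the library labelled WT listed both at 0. The inflammatory genes Nos2, Il1b and Tnf had 3.63, 0.199 and 0.525 FPKM in the library labelled RON TK-/-, against 1100, 823 and 1262 FPKM in the library labelled WT. The library labelled WT thus had these marks of interleukin-4 at 0 or nearly so, although its label states that treatment. Depth, as read from the coverage, was near 67100000 reads in the library labelled RON TK-/- and 59800000 in the library labelled WT. The macrophage label held in both: 14 of 15 marker genes were detected (at least 1 FPKM in a library), with summed levels of 6972 and 6127 FPKM in the libraries labelled RON TK-/- and WT. Lyz2, lysozyme, made up 4651 FPKM of the sum in the library labelled RON TK-/- and 3317 FPKM in that labelled WT. Of the 14 markers, 1 was higher and 4 were lower in the library labelled RON TK-/- by 2-fold or more. Among all detected genes 25.6% were higher and 8.71% lower, so lower markers had the larger share here. The lowest ratio was that of Cd14, the lipopolysaccharide co-receptor, with 33.7 FPKM in that labelled RON TK-/- and 1010 FPKM in that labelled WT.

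As background, the 6 genes encode a homeodomain transcription factor (Msx3), a tight junction protein (Cldn11), a protein that spans the membrane (Tmem26), a secreted retinol carrier (Rbp4), a secreted clotting protein (Vwf) and an enzyme (Cbr2). They are not known as members of a shared pathway. Several have been tied to alternative activation or to tissue macrophages in mice: Msx3 to microglia, Cldn11 to macrophages treated with interleukin-4, and Cbr2 to resident macrophages of several organs.

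**Figure D1:**
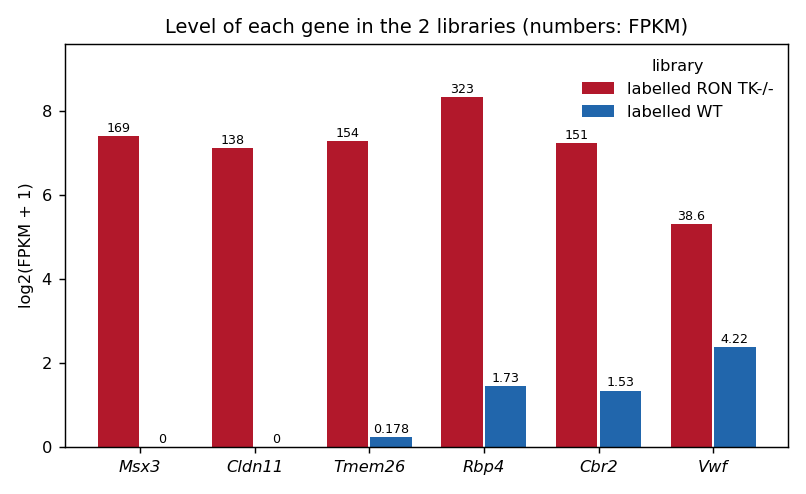
Level of each of the 6 genes in the library labelled RON TK-/- (red) and the library labelled WT (blue), as log2(FPKM + 1), with the FPKM above each bar; there is 1 library per group and no error bar. The red bars lie between 38.6 and 323 FPKM, and the blue bars between 0 and 4.22 FPKM.

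The transcription factor Msx3 was present at a high level in only 1 of the libraries. It had 169 FPKM in the library labelled RON TK-/-, while the library labelled WT listed it at 0. This level was above that of 96.4% of the genes with at least 1 FPKM in the library labelled RON TK-/-. The value rested on about 25511 estimated reads, and at the depth of the library labelled WT 3 reads would have given 0.0219 FPKM, a limit that covers counting error only. No fold is given against a listed 0, and its log2 ratio of 7.41 on the scale of FPKM + 1 depends on the 1 that is added. Msx3, known from the dorsal neural tube, lies on chromosome 7 from 140046157 to 140049088 of mm10, the build of all positions given here, on the minus strand, with 2 exons in the GENCODE transcript. Its relatives were not detected: Msx1 had 0.414 FPKM in the library labelled RON TK-/-, against 0.103 FPKM in the library labelled WT, and Msx2 had 0.041 FPKM in the library labelled RON TK-/-, against a listed 0 in that labelled WT. Detected were 11288 of all 23444 symbols, and 4 of the 16 other homeobox genes in a list of related factors. Of these, Hhex had 6.82 FPKM in the library labelled RON TK-/-, against 0.426 FPKM in the library labelled WT, and Hlx, a haematopoietic homeobox factor, had 21.4 FPKM in that labelled RON TK-/- and 3.53 FPKM in that labelled WT. Those 2 were higher by 2-fold or more in the library labelled RON TK-/-, and 0 were lower by as much. Among all 11288 detected genes, 25.6% were higher and 8.71% lower by this measure (2890 and 983 genes). With the libraries rescaled so that the median log2 ratio of detected genes, 0.57 as deposited, became 0, the counts were 1097 higher and 1619 lower.

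The 250 bases upstream of the transcript start, from the RefSeq table for GRCm38.p6, are shown for Msx3, since it and Rbp4 were the genes with a TATA match (TATAAA, either strand, in capitals) just before the start. For Msx3 this window is chr7:140049089-140049338, minus strand, and the match ends 23 bases before the start, at -23.
Msx3: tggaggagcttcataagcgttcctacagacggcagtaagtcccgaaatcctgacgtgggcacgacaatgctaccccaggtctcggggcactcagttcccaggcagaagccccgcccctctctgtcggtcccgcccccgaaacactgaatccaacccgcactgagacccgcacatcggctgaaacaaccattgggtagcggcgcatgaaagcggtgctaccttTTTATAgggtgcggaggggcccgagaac
TATAAA was found in 12.4% of 32851 promoter windows of the same length. The window had a CpG ratio (observed over expected) of 0.805, against a median of 0.373 over all windows.

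Cldn11 encodes claudin-11, the claudin of tight junctions in myelin and between Sertoli cells of the testis. It had 138 FPKM in the library labelled RON TK-/-, while the library labelled WT listed it at 0. About 17286 estimated reads stood behind the higher value. In the library labelled WT, 3 reads would have given 0.0268 FPKM. Its log2 ratio was 7.12 on the scale of FPKM + 1. Cldn11 spans 31149920 to 31164326 on the plus strand of chromosome 3, with 3 exons. Few other claudins were detected. Of the 24 other symbols named as claudins, 16 were listed at 0 in both libraries and 2 were detected, where 11288 of all 23444 symbols were. The row listed as Cldn25 had 18.3 FPKM in the library labelled RON TK-/-, against 15.9 FPKM in the library labelled WT, and Cldn12 had 3.85 FPKM in that labelled RON TK-/- and 1.73 FPKM in that labelled WT. Claudin-1 and claudin-2, reported with claudin-11 in alternatively activated mouse macrophages, were not detected: Cldn1 had 0.14 FPKM in the library labelled RON TK-/-, against 0.0913 FPKM in the library labelled WT, and Cldn2 was listed at 0 in both. Tjp1, a scaffold of the junction, had 3.45 FPKM in the library labelled RON TK-/-, against 2.72 FPKM in the library labelled WT. Among claudins and tight junction partners, 7 listed genes besides Cldn11 were detected. Of these, Tjp3, another scaffold, was higher by 2-fold or more (1.45 FPKM in the library labelled RON TK-/-, against 0.152 FPKM in the library labelled WT), and 0 were lower by as much. Among all detected genes 25.6% were higher and 8.71% lower by this measure. After median rescaling 0 of the 7 genes were higher, beside 1097 of the 11288 detected genes. The median log2 ratio of the 7 genes was -0.0024, against 0.57 over all detected genes. The upstream window of Cldn11 held none of the 8 motifs searched and had a CpG ratio of 0.758.

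Tmem26, known as a surface marker of beige adipocytes, had 154 FPKM in the library labelled RON TK-/-, against 0.178 FPKM in the library labelled WT. The ratio of the FPKM values was 866, the widest of the 4 genes with a value above 0 in both libraries, but the lower value rested on about 55.4 estimated reads over a transcript of 5052 bases. Its log2 ratio on the scale of FPKM + 1 was 7.04. Tmem26 lies on chromosome 10 from 68723746 to 68782654, plus strand, with 6 exons. Of 13 other markers of beige or brown fat, 3 were detected, where 11288 of all 23444 symbols were. Ucp1, the uncoupling protein that defines these cells, was listed at 0 in both libraries, as were Tbx1, Cited1, Cidea and Zic1. The beige marker Tnfrsf9, also an activation receptor of leukocytes, was lower, with 3.77 FPKM in the library labelled RON TK-/-, against 14 FPKM in the library labelled WT. By 2-fold or more, 25.6% of all detected genes were higher and 8.71% lower. Of the 3 other genes of this list that were detected, 1 was higher and 1 lower by as much. The higher one was Ear2, a ribonuclease of eosinophils and macrophages, which had 13 FPKM in the library labelled RON TK-/-, against 0.135 FPKM in the library labelled WT; its family holds near-identical copies, so its value is uncertain.

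The upstream window of Tmem26 is shown because it held 2 matches to TTC and GAA with 4 bases between them, the spacing of sites that the interleukin-4 factor STAT6 is known to prefer. The window is chr10:68723496-68723745, plus strand, the matches are in capitals, and they end at -218 and -32 from the start.
Tmem26: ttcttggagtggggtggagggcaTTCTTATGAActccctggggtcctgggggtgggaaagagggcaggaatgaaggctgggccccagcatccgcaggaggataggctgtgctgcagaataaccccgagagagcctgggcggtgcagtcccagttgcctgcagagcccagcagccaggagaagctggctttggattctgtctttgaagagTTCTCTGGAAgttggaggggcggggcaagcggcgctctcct
This motif reads the same on either strand and can share bases with the form with 3 bases between. It was found in 5.85% of all promoter windows, counted whatever their number of matches. The share of windows with 2 matches was not counted. A match is a matter of letters and says nothing of binding, and no match says only that the letters are not in this window. The CpG ratio of this window was 0.279.

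Rbp4, the carrier of retinol in blood that is secreted by liver and fat, was the most abundant of the 6 genes. It had 323 FPKM in the library labelled RON TK-/-, against 1.73 FPKM in the library labelled WT, a ratio of 187. About 20081 and 100.2 estimated reads stood behind these values in the libraries labelled RON TK-/- and WT. The log2 ratio was 6.89. The files list 2 transcripts on the minus strand of chromosome 19, both ending at the same place: NM_011255 from 38116620 to 38124811 and NM_001159487 from 38116620 to 38125321. Nearly all of the level went to the first, with 323 FPKM in the library labelled RON TK-/-, against 1.73 FPKM in the library labelled WT. The second, which starts further upstream, had 3.0e-06 FPKM in that labelled RON TK-/- and 3.13e-06 FPKM in that labelled WT.

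The upstream windows of both Rbp4 starts are shown side by side, because the listed levels differed so widely between the starts. The first is chr19:38124812-38125061 and the second chr19:38125322-38125571, both on the minus strand, with matches in capitals.
Rbp4, start of NM_011255: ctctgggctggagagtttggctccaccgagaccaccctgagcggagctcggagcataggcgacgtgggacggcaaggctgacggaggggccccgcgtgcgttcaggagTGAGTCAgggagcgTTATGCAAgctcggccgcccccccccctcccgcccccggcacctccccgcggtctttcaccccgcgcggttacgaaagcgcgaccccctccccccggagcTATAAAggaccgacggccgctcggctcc
Rbp4, start of NM_001159487: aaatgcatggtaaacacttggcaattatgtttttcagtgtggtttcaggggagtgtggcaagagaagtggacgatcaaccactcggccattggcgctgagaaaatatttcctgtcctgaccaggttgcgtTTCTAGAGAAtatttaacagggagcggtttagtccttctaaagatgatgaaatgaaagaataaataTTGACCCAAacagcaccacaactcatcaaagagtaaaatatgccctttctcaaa
The window of the start with the listed signal held TGANTCA (AP-1) from -142 to -136, TTGCNNAA (C/EBP-type, on the opposite strand) from -128 to -121 and TATAAA from -28 to -23. These motifs were found in 6.75%, 9.56% and 12.4% of all windows. The window of the other start held TTC and GAA with 4 bases between from -120 to -111 and TTGNNNCAA (C/EBP-type, found in 5.02% of windows) from -54 to -46. The GC content was 70.8% in the first and 40.8% in the second, against a median of 52.4%. Both strands were searched for each motif, the C/EBP-type motifs can share bases, and no printed matches overlapped. The remaining motifs were TTCNNNGAA (STAT-type, 7.02% of windows), GAGGAAGT (PU.1, 2.44%) and TGACCT repeated after 1 base (DR1, 0.0335%), and they were in none of the windows of the 5 genes that the table held, which were all but Vwf.

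The partners Ttr and Stra6 of Rbp4 were not detected, and genes of retinoid metabolism were higher and lower. Ttr, the blood partner of the retinol carrier, was listed at 0 in both libraries, and Stra6, its cell surface receptor, had 0.0262 FPKM in the library labelled RON TK-/-, against 0.0586 FPKM in the library labelled WT. The related carriers Rbp2, Rbp3 and Rbp7 were listed at 0 in both. Among the genes of retinol transport and retinoid metabolism, 19 besides Rbp4 were detected. Of these 10 were higher and 2 lower by 2-fold or more, where 25.6% of all detected genes were higher and 8.71% lower. Their median log2 ratio was 1.17, against 0.57 over all detected genes. After median rescaling 5 were higher and 3 lower, beside 1097 and 1619 of the 11288 detected genes. Dhrs3, which reduces retinal to retinol, had 292 FPKM in the library labelled RON TK-/-, against 23.1 FPKM in the library labelled WT. The nuclear receptor Rxra had 12.6 FPKM in that labelled RON TK-/- and 1.64 FPKM in that labelled WT, and the retinol dehydrogenase Dhrs9 had 27.1 FPKM in that labelled RON TK-/- and 6.34 FPKM in that labelled WT. The 2 lower genes were Cyp26b1, which degrades retinoic acid, with 2.49 FPKM in the library labelled RON TK-/-, against 11.3 FPKM in the library labelled WT, and Rdh10, which oxidises retinol, with 2.61 FPKM in that labelled RON TK-/- and 7.17 FPKM in that labelled WT.

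Vwf encodes von Willebrand factor, which binds platelets to injured vessel walls and carries clotting factor VIII, and it was the mildest case of the 6. It had 38.6 FPKM in the library labelled RON TK-/-, against 4.22 FPKM in the library labelled WT, a ratio of 9.15 and a log2 ratio of 2.92. Some 23108 and 2254 estimated reads stood behind these values in the libraries labelled RON TK-/- and WT, so Vwf was well above 0 in the library labelled WT, where 3 reads would have given 0.00568 FPKM. By log2 ratio it was number 110 among all detected genes, whereas the other 5 genes were numbers 7, 8, 9, 11 and 13. Vwf lies on chromosome 6 from 125552948 to 125686679, plus strand, with 52 exons. Some of its partners were not detected. F8, which encodes factor VIII, had 0.103 FPKM in the library labelled RON TK-/-, against 0.0894 FPKM in the library labelled WT, and Adamts13, the protease that cleaves von Willebrand factor, had 0.0275 FPKM in that labelled RON TK-/- and 0.0621 FPKM in that labelled WT. Of the 22 other genes of this list 9 were detected, where 11288 of all 23444 symbols were. The most abundant, Cd63, had 1094 FPKM in the library labelled RON TK-/-, against 878 FPKM in the library labelled WT. Of the 9, 2 were higher and 2 lower by 2-fold or more, where 25.6% of all detected genes were higher and 8.71% lower. After median rescaling 1 was higher and 2 lower, beside 1097 and 1619 of the 11288 detected genes. Itgb3, an integrin subunit that binds von Willebrand factor, had 26.5 FPKM in the library labelled RON TK-/-, against 3.93 FPKM in the library labelled WT. Mcfd2, a cargo receptor for factor VIII, had 76.4 FPKM in that labelled RON TK-/- and 37.5 FPKM in that labelled WT. Selp, stored with von Willebrand factor in endothelial granules, was lower, with 2.80 FPKM in the library labelled RON TK-/-, against 13.2 FPKM in the library labelled WT. Thbs1, thrombospondin, was also lower, with 59.8 FPKM in that labelled RON TK-/- and 168 FPKM in that labelled WT.

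Cbr2, a carbonyl reductase known from mouse lung, had 151 FPKM in the library labelled RON TK-/-, against 1.53 FPKM in the library labelled WT. The ratio was 98.6 and the log2 ratio 5.91, from about 10403 and 95.6 estimated reads in the libraries labelled RON TK-/- and WT. Cbr2 spans 120729485 to 120732021 on the minus strand of chromosome 11, with 8 exons. Of its 1061 stretches of 50 bases, the length of a read, 15.1% also occur in the pseudogene Gm11771, so part of its reads could have been shared with that copy. The other 5 genes shared 0 such stretches with any other GENCODE gene, and no GENCODE gene overlapped any of the 6. The relatives of Cbr2 were higher by less. Cbr3 had 18.3 FPKM in the library labelled RON TK-/-, against 2.39 FPKM in the library labelled WT, Cbr1 had 30.4 FPKM in that labelled RON TK-/- and 13.7 FPKM in that labelled WT, and Cbr4 had 10.4 FPKM in that labelled RON TK-/- and 3.95 FPKM in that labelled WT. These were the 3 of 16 other detected genes in the list of carbonyl reductases and related enzymes that were higher by 2-fold or more, and 0 were lower by as much, a share no higher than the 25.6% of all detected genes that were higher. After median rescaling 1 was higher and 0 lower, beside 1097 and 1619 of the 11288 detected genes. The upstream window of Cbr2 held none of the 8 motifs and had a CpG ratio of 0.165.

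Genes known with Cbr2 from resident macrophages went both ways, more of them higher than lower. Of 19 such genes detected besides Cbr2, 11 were higher and 2 lower by 2-fold or more, with a median log2 ratio of 1.42, where 25.6% of all detected genes were higher and 8.71% lower. After median rescaling 10 were higher and 5 lower, beside 1097 and 1619 of the 11288 detected genes. The lectin Clec10a had 207 FPKM in the library labelled RON TK-/-, against 6.56 FPKM in the library labelled WT, and the chemokine Ccl8 had 1321 FPKM in that labelled RON TK-/- and 55.8 FPKM in that labelled WT. The lower genes were Timd4, a receptor for dying cells, with 0.095 FPKM in the library labelled RON TK-/-, against 15.9 FPKM in the library labelled WT, and Marco, a scavenger receptor, with 0.2 FPKM in that labelled RON TK-/- and 5.97 FPKM in that labelled WT. Lyve1, a defining marker of such cells, had 0.0782 FPKM in the library labelled RON TK-/-, against 0.115 FPKM in the library labelled WT.

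**Figure D2:**
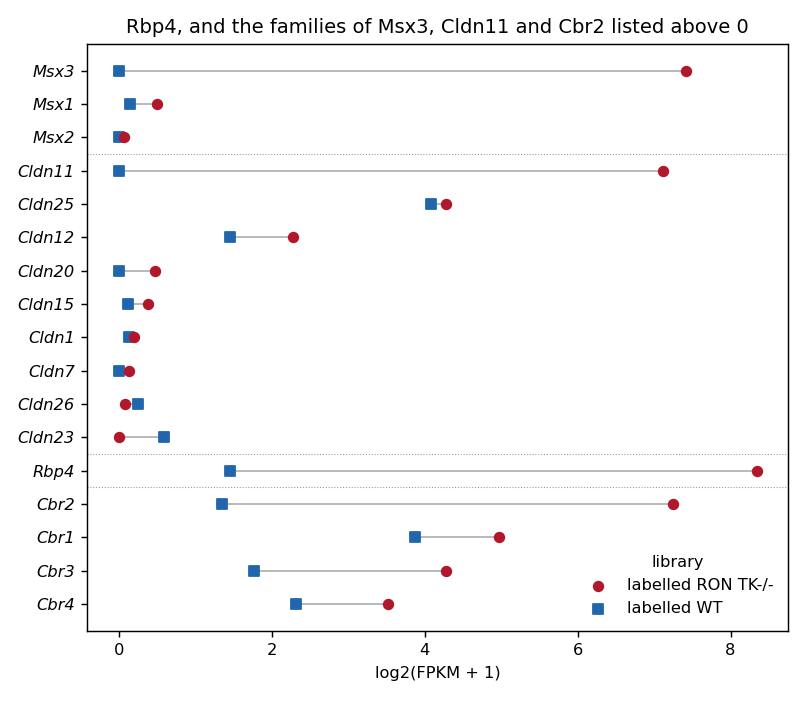
Levels of Rbp4 and of the MSX, claudin and carbonyl reductase genes listed above 0 in a library, as log2(FPKM + 1), in the library labelled RON TK-/- (red circles) and the library labelled WT (blue squares), with dotted lines between families. The longest line of each family belongs to Msx3, Cldn11 or Cbr2, and the carbonyl reductases Cbr1, Cbr3 and Cbr4 are the only plotted relatives at 10 FPKM or more in a library besides Cldn25.

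In the library labelled RON TK-/- the levels ran from Rbp4 (323 FPKM) through Msx3 (169), Tmem26 (154), Cbr2 (151) and Cldn11 (138) to Vwf (38.6 FPKM). Neighbours in the middle of this order were close: Msx3 was 1.10 times Tmem26, Tmem26 was 1.02 times Cbr2 and Cbr2 was 1.09 times Cldn11. Rbp4 was 1.91 times Msx3, and Cldn11 was 3.57 times Vwf. In the library labelled WT the order was Vwf (4.22 FPKM), Rbp4 (1.73), Cbr2 (1.53) and Tmem26 (0.178 FPKM), then Msx3 and Cldn11, both listed at 0. No spread between replicates exists against which to set these steps. Together the 6 genes made up 0.218% of all FPKM in the library labelled RON TK-/-, against 0.00179% in the library labelled WT.

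**Figure D3:**
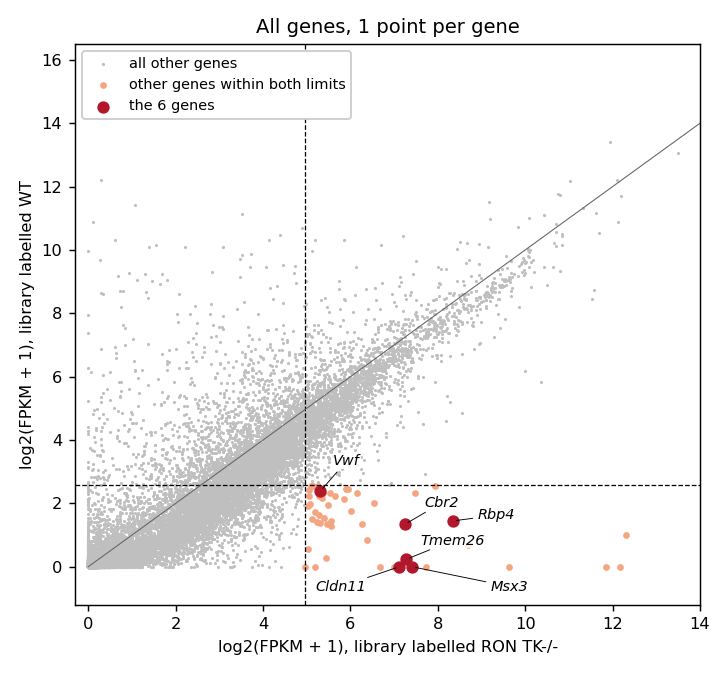
Each of the 23444 genes by its log2(FPKM + 1) in the library labelled RON TK-/- (x axis) and the library labelled WT (y axis), with the diagonal and dashed lines at the limits of 30 and 5 FPKM. The 6 genes (red) lie in the corner that 44 other genes (orange) share, Vwf close to the crossing of the limits and Msx3 and Cldn11 on the axis.

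Genes lay close to each limit on either side. In the library labelled RON TK-/-, just inside its limit of 30 FPKM were Ang2, Il13ra2 and Ltc4s, with 30.4, 31.5 and 31.7 FPKM. Just outside it were Itgax, Gnpda1 and Fasn, with 29.5, 28.7 and 28.5 FPKM. Just under the limit of 5 FPKM in the library labelled WT were Scd2, Prps1 and Tbc1d14, with 4.87, 4.87 and 4.86 FPKM, and just over it were Gpr65 and Mknk2, with 5.10 and 5.14 FPKM. The reverse pattern, over 30 FPKM in the library labelled WT and under 5 FPKM in the library labelled RON TK-/-, was met by 113 symbols (0.482%).

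Over the 2 libraries, the genes nearest to each of the 6 were found by the distance between pairs of log2(FPKM + 1). Msx3, Cldn11 and Tmem26 were among each other's 3 nearest genes, at distances of 0.27 to 0.29. The remaining one of the 3 was Chil4 for Msx3 (0.32), and the small nucleolar RNA Snord16a for Cldn11 (0.13) and Tmem26 (0.38). Rbp4 was nearest to the lectin gene Mgl2 (0.83), then to Cbr2 (1.10) and the desaturase Scd2 (1.18). Cbr2 lay farther from other genes, nearest to Fcrls (0.98), Ipmk (0.99) and Cd300lb (1.0). Vwf had closer matches, nearest to Clcn3 (0.09), Hip1 (0.15) and Tbc1d14 (0.17). Such likeness rests on 2 values per gene.

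Each of the 6 genes had a higher ratio than the genes next to it on the chromosome, but the 6 were chosen on this contrast and their neighbours were not. Of the 36 nearest neighbours, 3 on each side of each gene, 0 lay within both limits, and with 0.213% of all symbols within them a count of 0 is at the background. Detected were 24, of which 8 were higher and 3 lower in the library labelled RON TK-/- by 2-fold or more, where 25.6% of all detected genes were higher and 8.71% lower. Their median log2 ratio was 0.81, against 0.57 over all detected genes. The neighbour with the highest ratio was Ffar4, a fatty acid receptor 2.36 kb from Rbp4, with 6.81 FPKM in the library labelled RON TK-/-, against a listed 0 in the library labelled WT. Further from Rbp4, Cep55 had 12.3 FPKM in the library labelled RON TK-/-, against 2.56 FPKM in the library labelled WT, and Fra10ac1 had 6.16 FPKM in that labelled RON TK-/- and 0.841 FPKM in that labelled WT. Dcxr, a reductase 2.20 kb from Cbr2, had 29.8 FPKM in the library labelled RON TK-/-, against 14.9 FPKM in the library labelled WT. Zfp511, 5.55 kb from Msx3, had 10.3 FPKM in that labelled RON TK-/- and 4.15 FPKM in that labelled WT. Skil, 27.0 kb from Cldn11, was lower, with 6.80 FPKM in the library labelled RON TK-/-, against 24.5 FPKM in the library labelled WT. Ano2, 3.74 kb from Vwf, was listed at 0 in both, and Cd9 on its other side had 405 FPKM in that labelled RON TK-/- and 210 FPKM in that labelled WT. The nearest neighbour of Tmem26 that was detected, Rhobtb1, lay 426 kb away and had 1.22 FPKM in that labelled RON TK-/- and 0.583 FPKM in that labelled WT.

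**Figure D4:**
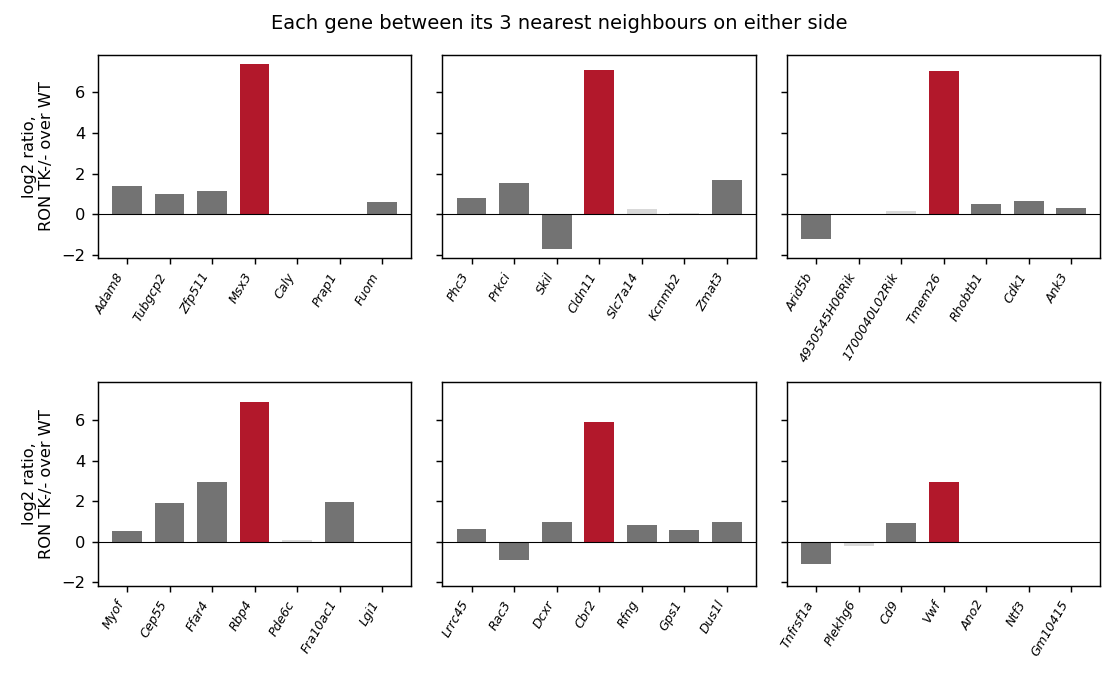
Log2 ratio, RON TK-/- over WT on the scale of FPKM + 1, of each of the 6 genes (red) and its 3 nearest neighbours on either side in chromosome order (dark grey where detected, light grey where not). Each red bar, of a gene chosen on this contrast, is higher than any grey bar of its panel, and Ffar4 beside Rbp4 is the highest grey bar, at 2.97.

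Since the 6 genes are known from other cells too, markers of such cells are set below beside Vwf, Cldn11, Rbp4 and Cbr2. Fat markers beside Tmem26 are given above, and no markers of neural tube cells were listed for Msx3. In bulk RNA, fewer cells of a type and less RNA per cell cannot be told apart. Of all 23444 symbols, 10911 had at least 1 FPKM in the library labelled RON TK-/-, 9982 in that labelled WT and 11288 in either. Most symbols were thus under 1 FPKM in each library, so a count of markers under 1 FPKM is to be read beside that share. For Vwf, 13 of 18 endothelial markers were under 1 FPKM in the library labelled RON TK-/-, against 15 of 18 in the library labelled WT, with summed levels of 42.4 FPKM in that labelled RON TK-/- and 39.6 FPKM in that labelled WT. The endothelial cadherin Cdh5 had 0.177 FPKM in the library labelled RON TK-/-, against 0.466 FPKM in the library labelled WT, and the receptor Tek had 0.0142 FPKM in the library labelled RON TK-/-, against a listed 0 in that labelled WT. Of the 5 detected, Flt1, also made by monocytes, had 20.8 FPKM in the library labelled RON TK-/-, against 0.515 FPKM in the library labelled WT, and Pecam1 had 2.53 FPKM in that labelled RON TK-/- and 0.527 FPKM in that labelled WT. Icam2 had 3.39 FPKM in that labelled RON TK-/- and 1.53 FPKM in that labelled WT. Kdr and Eng were lower, with 1.72 and 11.7 FPKM in the library labelled RON TK-/-, against 6.54 and 26.6 FPKM in the library labelled WT. All 12 megakaryocyte and platelet markers other than Vwf were under 1 FPKM in both libraries, and they summed to 1.62 FPKM in the library labelled RON TK-/-, against 1.13 FPKM in the library labelled WT, and Gp9, Gp5, Gp6 and Gata1 were listed at 0 in both.

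For Cldn11, the myelin genes Mog, Mobp, Ermn and Olig2 were listed at 0 in both libraries, and the summed level of 11 oligodendrocyte and Schwann cell markers was 23.5 FPKM in the library labelled RON TK-/-, against 15.1 FPKM in the library labelled WT. Most of it came from Cnp, with 14.3 FPKM in that labelled RON TK-/- and 10.3 FPKM in that labelled WT, and Mbp, with 7.77 FPKM in that labelled RON TK-/- and 3.41 FPKM in that labelled WT. For Sertoli cells, 7 of 9 markers were under 1 FPKM in each library, where most of all symbols were too. Wt1 had 0.946 FPKM in the library labelled RON TK-/-, against 4.34 FPKM in the library labelled WT, and Tspan7, which other tissues express as well, had 23.4 FPKM in that labelled RON TK-/- and 4.90 FPKM in that labelled WT. The 9 markers summed to 26.4 FPKM in that labelled RON TK-/- and 10.3 FPKM in that labelled WT. For Rbp4, 10 of 11 hepatocyte markers were under 1 FPKM in both libraries, and albumin (Alb) had 0.0332 FPKM in the library labelled RON TK-/-, against 0.0366 FPKM in the library labelled WT. The exception was Trf, transferrin, with 49.4 FPKM in that labelled RON TK-/- and 28.7 FPKM in that labelled WT. Of 10 adipocyte markers 7 were under 1 FPKM in both libraries, and of the fat droplet genes Cidec was listed at 0 in both and Plin1 had 0.0364 FPKM in the library labelled RON TK-/-, against a listed 0 in that labelled WT. Fabp4, also a macrophage gene, had 154 FPKM in the library labelled RON TK-/-, against 70.8 FPKM in the library labelled WT, and the adipocyte markers summed to 186 FPKM in that labelled RON TK-/-, against 82.9 FPKM in that labelled WT. For Cbr2, all 10 markers of club or other lung epithelial cells were under 1 FPKM in both libraries, and they summed to 0.0389 FPKM in the library labelled RON TK-/-, against 0.102 FPKM in the library labelled WT.

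Stromal markers had the highest summed level after those of macrophages, and it was high in both libraries. Of 12 fibroblast or stromal markers 10 were detected, and the 12 summed to 992 FPKM in the library labelled RON TK-/-, against 824 FPKM in the library labelled WT. The collagens Col1a1 and Col1a2 had 250 and 433 FPKM in the library labelled RON TK-/-, against 195 and 407 FPKM in the library labelled WT. Postn, periostin, had 43.4 FPKM in the library labelled RON TK-/-, against 1.52 FPKM in the library labelled WT. It belongs to the 44 other genes within the limits by which the 6 were picked. Col3a1 was also higher, with 171 FPKM in that labelled RON TK-/- and 48.5 FPKM in that labelled WT. Cxcl12 went the other way, with 45.2 FPKM in the library labelled RON TK-/-, against 148 FPKM in the library labelled WT. Thy1 had 0.0797 FPKM in the library labelled RON TK-/-, against a listed 0 in that labelled WT. The part of stromal or of any other cells in the levels of the 6 genes was not tested. Lists of neutrophil, mast cell, dendritic, lymphoid and erythroid markers summed to at most 4.59 FPKM in either library.

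**Figure D5:**
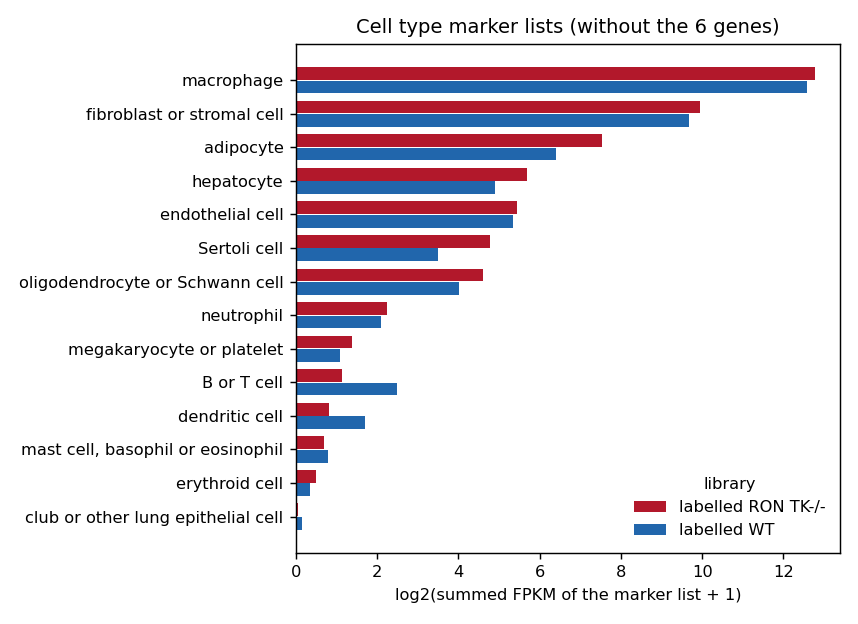
Summed FPKM of each cell type marker list without the 6 genes, as log2(sum + 1), in the library labelled RON TK-/- (red) and the library labelled WT (blue). Macrophage markers (6972 and 6127 FPKM) and stromal markers (992 and 824 FPKM) have the highest sums, and the lung epithelial list is near 0 in both libraries.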

How the data were processed

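Per the labels' protocols, total RNA was isolated with TRIZOL, made into libraries with a TruSeq RNA kit and read as single 50-base reads, with no statement on strand. For each library the authors deposited FPKM and coverage (mean read depth per base) of 31580 RefSeq transcript rows, under Cufflinks column names, per the file headers. Build mm10 and DESeq are named, without a version or role, in the submitters' processing notes. The aligner and annotation release are not stated in the sources used here.

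Rows of a symbol were summed. The log2 ratio sets FPKM + 1 of the library labelled RON TK-/- over FPKM + 1 of that labelled WT, which understates the difference of low genes. A gene counted as detected from 1 FPKM in either library, and as higher or lower from 2-fold on that scale. Median rescaling multiplied the FPKM of the libraries by opposite factors until the median log2 ratio was 0. Other pseudocounts, limits and scalings are in the closing section. Estimated reads are the deposited coverage times length over 50, and are not counts, so no count model was used. With 1 library per group no test was possible. The 6 genes, the 7 gene lists and the 14 marker lists were chosen with earlier results of these data known. Named were the 6 genes, Mst1r, 6 genes that check the labels, relatives, the 3 nearest neighbours on each side, the 3 most alike genes, genes beside each limit and up to 4 genes per list with the largest absolute ratio; others, and the members that complete a small count, were named after their values were seen. Some genes that this rule names are not reported here. Another symbol was looked up in RefSeq where an entry was missing. Starts are printed counted from 1. Exons, strands and shared 50-base stretches came from GENCODE M21, and promoters from RefSeq for GRCm38.p6. Python 3.11.15, pandas 2.3.3 and numpy 2.4.6 were used.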

Additional observations from a re-analysis of the deposited data

How the results depend on the processing

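The limits by which the genes were picked left all 6 log2 ratios above 0 under each alternative, an outcome fixed in advance. The sign is thus no test of the difference, and only the sizes of the log2 ratios are compared here. With a pseudocount of 0.1 FPKM they were 10.73 for Msx3, 10.43 for Cldn11, 9.12 for Tmem26, 7.47 for Rbp4, 6.53 for Cbr2 and 3.16 for Vwf, and with a pseudocount of 5 FPKM 5.12, 4.84, 4.94, 5.61, 4.58 and 2.24 in the same order. Rescaled to a median ratio of 0 they were 7.08, 6.79, 6.66, 6.35, 5.37 and 2.33. From estimated reads scaled to library totals they moved beyond counting error for Msx3 (7.50), Cldn11 (7.23) and Tmem26 (7.14), and the cause was not tested. The size of the ratio of Msx3 and Cldn11 is thus set by the pseudocount, as both have a listed 0.

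Vwf left the limits after median rescaling (30.7 FPKM in the library labelled RON TK-/-, against 5.31 FPKM in that labelled WT), with a limit of 50 in place of 30 FPKM and with a limit of 2 in place of 5 FPKM; the other 5 genes stayed within under every alternative run. The 50 genes within both limits became 29 after median rescaling, 106 with over 20 FPKM, 23 with over 50 FPKM, 26 with under 2 FPKM and 109 with under 10 FPKM.

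As deposited, 2890 detected genes were higher and 983 lower by 2-fold or more. The higher count was 983 with a pseudocount of 5 FPKM. After median rescaling the counts were 1097 higher and 1619 lower, so that 40.4% of the genes past 2-fold were higher ones, and 74.6% as deposited. At a 4-fold limit they were 419 and 463. Counts of the lists (without the 6 genes) after median rescaling were 5 higher retinoid genes, 1 higher carbonyl reductase gene, 1 higher VWF partner, 0 higher claudin list genes and 5 lower resident-like macrophage genes. At 4-fold they were 2 higher and 0 lower retinoid genes, 7 higher resident-like macrophage genes, 1 higher carbonyl reductase gene, 1 higher and 0 lower VWF partners, 0 higher claudin list genes and 0 lower genes of the beige fat list. No paired analysis was possible because each group has 1 library, and for the same reason no replicate could be left out.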

Other observations

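The 44 other genes within the same limits held more genes that are unusual for macrophages, named here after their values were seen. Tuba8, a tubulin, had 42.2 FPKM in the library labelled RON TK-/-, against 0.222 FPKM in the library labelled WT. F7, the liver clotting factor VII, had 33.8 FPKM in that labelled RON TK-/- and 1.84 FPKM in that labelled WT, Lipn, a lipase known from skin, had 176 FPKM in that labelled RON TK-/- and 3.99 FPKM in that labelled WT, and Prl2c2, a prolactin family gene, had 41.1 FPKM in that labelled RON TK-/- and 1.93 FPKM in that labelled WT. Like Vwf, F7 encodes a protein of blood clotting. Prl2c2 belongs to a group of near-identical copies, so its value is uncertain. Of the 50 genes within the limits, the library labelled WT listed 9 at 0. In the reverse pattern, 5 genes over 30 FPKM in the library labelled WT were listed at 0 in the library labelled RON TK-/-.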
